A study of Homo sapiens with 23 samples.

Results

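The 10 genes described here encode the core of the human RNA interference machinery: DROSHA, DGCR8, XPO5, DICER1, TARBP2, AGO1, AGO2, AGO3, AGO4 and TNRC6A. They were taken by their role in microRNA processing and silencing, by a rule that uses no measured value, although earlier results of these data were known when they were chosen. They are 10 of 61806 genes in the first deposited table and 10 of 42901 in the second. Their RNA was measured in A549 cells, a human lung adenocarcinoma line, after depletion of THUMPD3, an enzyme that places the m2G mark on tRNA. Each knockdown was itself made by RNA interference. In the first table, cells with shRNA shD3 #1 (3 libraries) were compared with sh1Control (3), cells with shRNA shD3 #4 (3) with sh4Control (3), and cells transfected with the THUMPD3 siRNA siD3 #3 (3, siTHUMPD3 in the labels) with siControl (2). The second table holds a deeper sequencing of shD3 #1 (3) and sh1Control (3). Every control is labelled WT and every knockdown THUMPD3 knockdown. The shRNAs were delivered by lentivirus under a doxycycline-inducible promoter, and the study compared treated with untreated cells. Whether the shRNA controls received doxycycline is not given in the sources used here, so the inducer and the knockdown cannot be told apart. Nor do the labels say whether the deep libraries came from the same cultures as the first ones.

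A microRNA is cut from its primary transcript in the nucleus by the Microprocessor, which joins the RNase DROSHA to the double-stranded RNA-binding protein DGCR8. Exportin-5 (XPO5) carries the hairpin to the cytoplasm, DICER1 with its partner TARBP2 cuts it to a duplex, and an Argonaute protein (AGO1 to AGO4) takes up one strand, whose seed bases find target mRNAs. TNRC6A, a GW182 protein, then links Argonaute to the enzymes that shorten and decay the mRNA. An shRNA enters this pathway as a hairpin that needs export and dicing, whereas an siRNA duplex is loaded directly, and AGO2 is the Argonaute known for slicing the target.

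Several genes of the pathway are also sources of microRNAs, and the sequences below are shown because the level of these genes' own transcripts is among the results. DGCR8 RNA carries hairpins in its exons: hsa-miR-3618 lies outside the coding sequence at chr22:20085797-20085818, and the 2 arms of hsa-miR-1306 lie within it at chr22:20086072-20086093 and chr22:20086112-20086129, all on the plus strand. MIR17HG, the host transcript of the miR-17 to miR-92a cluster on the plus strand of chromosome 13, holds its 6 hairpins in its exons between hsa-miR-17-5p (chr13:91350618-91350640) and hsa-miR-92a-3p (chr13:91351361-91351382). DLEU2 (minus strand) hosts hsa-miR-15a-5p at chr13:50049167-50049188 and hsa-miR-16-5p at chr13:50049027-50049048 in introns. MIR22HG (minus strand) holds hsa-miR-22-3p in an exon at chr17:1713914-1713935, and MIR29B2CHG (minus strand) holds hsa-miR-29b-3p (chr1:207802450-207802472) and hsa-miR-29c-3p (chr1:207801865-207801886) in exons. The mature RNAs are from RefSeq on GRCh38.p14, 5′ to 3′, with the seed (bases 2 to 8) in capitals.
hsa-miR-3618: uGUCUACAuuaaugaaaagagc
hsa-miR-1306-5p: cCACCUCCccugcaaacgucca
hsa-miR-1306-3p: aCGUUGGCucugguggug
hsa-miR-17-5p: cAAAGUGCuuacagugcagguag
hsa-miR-20a-5p: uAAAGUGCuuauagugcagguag
hsa-miR-18a-5p: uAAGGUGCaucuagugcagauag
hsa-miR-19a-3p: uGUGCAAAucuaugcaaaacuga
hsa-miR-19b-3p: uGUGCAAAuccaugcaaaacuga
hsa-miR-92a-3p: uAUUGCACuugucccggccugu
hsa-miR-15a-5p: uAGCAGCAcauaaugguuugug
hsa-miR-16-5p: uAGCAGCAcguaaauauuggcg
hsa-miR-22-3p: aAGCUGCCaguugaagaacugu
hsa-miR-29b-3p: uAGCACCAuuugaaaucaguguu
hsa-miR-29c-3p: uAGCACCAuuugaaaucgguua
By seed, miR-17-5p groups with miR-20a-5p, miR-19a-3p with miR-19b-3p, miR-15a-5p with miR-16-5p and miR-29b-3p with miR-29c-3p. The tables count RNA of genes, so the values below are levels of host RNA and not of any mature microRNA.

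The first table's libraries held 9854294 to 22101059 counts, the smallest being shD3 #1 replicate 3, and the deep libraries held 27285889 to 35458367 in the knockdown and 51101905 to 59974740 in the control. THUMPD3 did not overlap between any knockdown and its control, and stood at 51.3%, 31.4%, 17.1% and 49.6% of the control mean in shD3 #1, shD3 #4, siD3 #3 and deep shD3 #1. The exact permutation p (two-sided) was 0.100 each time, which is the lowest that so few libraries can give. The epithelial markers, of which KRT8 and KRT18 are keratins, summed to 3758 to 7942 cpm (counts scaled to a library of 1000000) in all 23 libraries, against 3.10 to 33.3 for 7 fibroblast, 2.13 to 7.21 for 3 leukocyte and 0.139 to 1.55 for 3 endothelial markers. The leukocyte gene CD3E had no count in any group except deep shD3 #1. These sums moved with the groups. The fibroblast sum was higher in every knockdown library than in its controls. The epithelial sum was higher without overlap in shD3 #1 (7653 to 7942 cpm against 5985 to 6298) and in deep shD3 #1 (6956 to 7045 against 4759 to 5331), and lower in shD3 #4 (4826 to 5284 against 6697 to 6952). The endothelial sum was higher without overlap in shD3 #4, siD3 #3 and deep shD3 #1, and the leukocyte sum was lower in shD3 #1 and deep shD3 #1. Their part in the results was not tested. The share of counts from mitochondrial genes also moved with the groups: it was 31.4 to 33.6% in sh1Control and 29.0 to 29.6% in shD3 #1, 27.8 to 30.9% in sh4Control and 31.2 to 37.4% in shD3 #4, 24.9 to 27.3% in siControl and 29.8 to 36.5% in siD3 #3, and 14.7 to 15.4% and 11.8 to 12.5% in the deep control and knockdown. Whether it bears on the values below was not tested.

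None of the 10 genes changed by as much as 1.5-fold with an adjusted p under 0.05 in any knockdown, a pair of thresholds that 29.1% of the genes tested passed in shD3 #1, 12.5% in shD3 #4, 22.0% in siD3 #3 and 29.1% in deep shD3 #1. Smaller shifts were called, and their shares are given below beside those of all genes. The genes of the nuclear steps, DROSHA, DGCR8 and XPO5, were lower in shD3 #1 and siD3 #3, and none of them was called in shD3 #4. In deep shD3 #1 DGCR8 and XPO5 were called lower and DROSHA was not. Over all genes tested, 27.8% were called lower in shD3 #1 and 16.4% in siD3 #3, so these calls alone do not set the nuclear steps apart. In siD3 #3 the call was kept in 4 of 11 alternative fits for DROSHA and in 7 of 11 for XPO5. AGO2 and TNRC6A were higher in shD3 #1 in both tables. DICER1 and AGO4 were slightly higher in both shRNA knockdowns of the first table, with the DICER1 call in shD3 #1 kept in 6 of 12 alternative fits. In what follows "rose" and "fell" mean an adjusted p under 0.05 in the quasi-likelihood test of edgeR over all genes tested, and levels are cpm after TMM normalisation. In bulk RNA, fewer cells expressing a gene and less of its RNA per cell cannot be told apart.

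In shD3 #1, 4 of the 10 genes rose and 3 fell, where 28.6% of all 16456 genes tested rose and 27.8% fell. In shD3 #4, 2 rose and 1 fell, where the shares over 16493 genes were 20.0% and 20.8%. In siD3 #3, 0 rose and 3 fell, where 16.6% and 16.4% of 17032 genes did. In these 5 libraries none of the 10 rose by edgeR or by DESeq2, and 1, DICER1, was higher at an unadjusted p under 0.05 in edgeR. An edgeR fit of all 17 libraries of the first table instead called 2 as higher, DICER1 (adjusted p = 0.0081) and TNRC6A (adjusted p = 0.023). The share of all genes called higher in that fit was not counted. In deep shD3 #1, 4 rose and 3 fell, where 31.1% and 31.5% of 18763 genes did. The median log2 fold change of the 10 genes was 0.15, 0.055, -0.022 and 0.0065 in these comparisons, beside -0.0061, 0.0079, 0.026 and -0.015 over all genes tested.

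**Figure D1:**
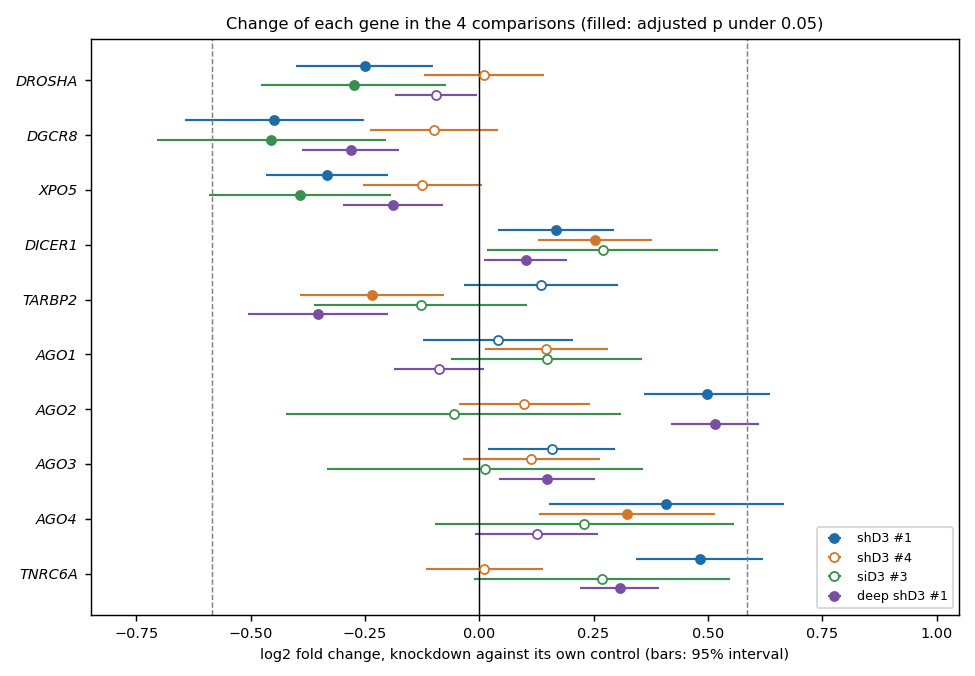
Log2 fold change of each gene in the 4 comparisons of a knockdown with its own control, with 95% intervals from the edgeR fit. Filled points passed an adjusted p of 0.05, and dashed lines mark a 1.5-fold change, which no point reaches.

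DGCR8 (chr22:20080221-20111877 on GRCh38, like all gene positions here, plus strand), the RNA-binding partner of DROSHA, had the lowest log2 fold change of the 10 genes in shD3 #1 and in siD3 #3. It stood at 37.4, 39.6 and 38.6 cpm in the sh1Control libraries and at 28.5, 31.9 and 23.1 in shD3 #1. The knockdown libraries were all below the controls, and the lowest was the shallowest library, replicate 3. DGCR8 fell by 0.45 on the log2 scale (SE 0.092, adjusted p = 0.00059), to 72.3% of the control mean, and without that replicate the fall was 0.35. In the siRNA experiment it was 34.2 and 29.2 cpm in siControl and 24.0, 22.3 and 23.1 in siD3 #3. These groups did not overlap either, and DGCR8 fell by 0.45 (SE 0.11, adjusted p = 0.015). The call was lost without siControl replicate 1 (a log2 change of -0.34, adjusted p = 0.125) and without siTHUMPD3 replicate 2 (-0.42, adjusted p = 0.062). In the deep libraries the controls were at 45.1, 44.8 and 42.8 cpm and the knockdown at 36.5, 36.0 and 36.7. All 3 knockdown libraries lay below the controls, and the fall was 0.28 (SE 0.050, adjusted p = 0.00019). In shD3 #4, by contrast, the groups overlapped, at 37.6 to 39.6 cpm in the control and 34.6 to 38.1 in the knockdown, and the log2 fold change of -0.10 did not pass the test (adjusted p = 0.26). A lncRNA on the opposite strand covers 7.18% of the DGCR8 exons, and the strand setting of the counting is not given in the sources used here.

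DROSHA (chr5:31400494-31532196, minus strand), the RNase that makes the first cut, followed DGCR8 at a smaller size. Its levels were 69.5, 64.6 and 69.8 cpm in sh1Control and 59.5, 59.1 and 52.3 in shD3 #1. No knockdown library reached the lowest control, and DROSHA fell by 0.25 (SE 0.070, adjusted p = 0.0065). In siControl it was 52.9 and 49.4 cpm, and in siD3 #3 it was 40.7, 43.3 and 42.8. The groups did not overlap and DROSHA fell by 0.27 (SE 0.087, adjusted p = 0.044), a call close to the threshold that DESeq2 (adjusted p = 0.066), either other filter on counts and leaving out siControl replicate 1 or 2 or siTHUMPD3 replicate 1 or 2 ended. In shD3 #4 the ranges overlapped (59.0 to 64.0 cpm in the control, 61.0 to 63.4 in the knockdown) with a log2 fold change of 0.010 (95% interval -0.12 to 0.14). The deep libraries gave 137, 141 and 138 cpm in the control and 127, 134 and 128 in the knockdown. Although these did not overlap, the log2 fold change of -0.095 missed the threshold (adjusted p = 0.061). It passed without a filter on counts (-0.12, adjusted p = 0.036), with at least 10 counts in every library (-0.10, adjusted p = 0.040) and without deep shD3#1 replicate 2 (-0.12, adjusted p = 0.036).

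XPO5 (chr6:43522334-43576038, minus strand), the exporter of microRNA hairpins and of shRNAs, stood at 70.9, 71.2 and 69.5 cpm in sh1Control and at 54.0, 57.3 and 56.6 in shD3 #1. The groups were well apart and XPO5 fell by 0.33 (SE 0.063, adjusted p = 0.00029). In the siRNA experiment it was 80.0 and 78.3 cpm in the control and 58.4, 58.5 and 64.1 in the knockdown. Every siD3 #3 library was below both controls, and XPO5 fell by 0.39 (SE 0.086, adjusted p = 0.011). That call was lost, at adjusted p of 0.051 to 0.065, without siControl replicate 1 or 2 or siTHUMPD3 replicate 1 or 2. In deep shD3 #1 the controls were at 68.6, 69.5 and 64.2 cpm and the knockdown at 56.9, 61.7 and 58.9. The groups did not overlap, and the fall was 0.19 (SE 0.051, adjusted p = 0.0048). In shD3 #4 XPO5 was 69.7 to 72.2 cpm in the control and 61.8 to 67.0 in the knockdown, with a log2 fold change of -0.12 that did not pass (adjusted p = 0.12). Exons of POLR1C on the opposite strand cover 4.1% of the XPO5 exons.

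**Figure D2:**
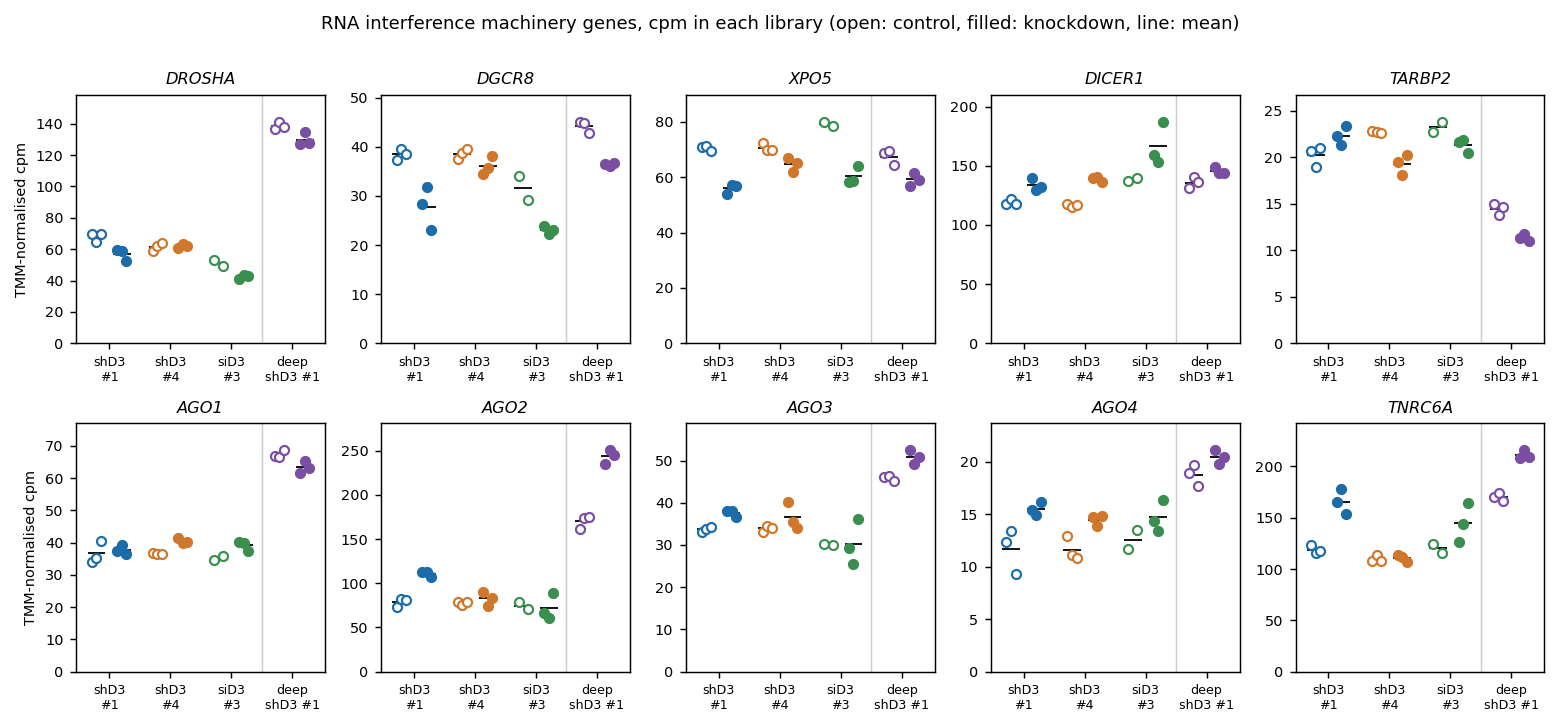
TMM-normalised cpm of the 10 genes in each of the 23 libraries, with control libraries open, knockdown libraries filled and a line at each group mean. The grey line parts the 2 tables, whose levels were normalised separately. The 3 shD3 #1 points lie below their controls for DROSHA, DGCR8 and XPO5 and above them for AGO2 and TNRC6A.

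At the cytoplasmic cut, DICER1 (chr14:95086228-95158010, minus strand), the RNase that turns hairpins into duplexes, was higher in each knockdown by a small margin. In shD3 #4 it was 140, 141 and 137 cpm against 118, 115 and 117 in sh4Control. All knockdown libraries were above all controls, and DICER1 rose by 0.25 (SE 0.061, adjusted p = 0.0015). In shD3 #1 it was 140, 130 and 132 cpm against 118, 122 and 117, which again did not overlap, and it rose by 0.17 (SE 0.059, adjusted p = 0.025). That call was lost without sh1Control replicate 1, 2 or 3 or shD3#1 replicate 1 (adjusted p of 0.058 to 0.132), without a filter on counts (adjusted p = 0.077) and in the joint fit of 17 libraries (adjusted p = 0.082). In the deep libraries DICER1 was 149, 144 and 144 cpm against 131, 141 and 136, which did not overlap, and its rise of 0.10 (SE 0.042, adjusted p = 0.049) was kept in only 2 of 11 alternatives. In siD3 #3 the values were 159, 153 and 187 cpm against 137 and 139 in siControl. The knockdown libraries were above the controls with replicate 3 the highest, and the log2 fold change of 0.27 did not pass the test (adjusted p = 0.094), although it did in the joint fit of 17 libraries (adjusted p = 0.0081). In its introns DICER1 holds the hairpin of miR-3173, on its own strand at chr14:95137919-95137986.

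TARBP2 (chr12:53500921-53506431, plus strand), the double-stranded RNA-binding partner of DICER1, did not move alike across the knockdowns. In shD3 #4 it was 19.5, 18.1 and 20.3 cpm against 22.8, 22.7 and 22.6 in sh4Control. All knockdown libraries were lower, and TARBP2 fell by 0.23 (SE 0.077, adjusted p = 0.016), a call lost without shD3#4 replicate 2 (-0.20, adjusted p = 0.081). With shD3 #1 in the first table it was 22.3, 21.3 and 23.3 cpm against 20.7, 18.96 and 21.0. The knockdown libraries were the higher ones here, with a log2 fold change of 0.14 that did not pass (adjusted p = 0.16). With the same shRNA in the deep libraries it was 11.3, 11.7 and 11.1 cpm against 15.0, 13.8 and 14.6. There every knockdown library was lower, and TARBP2 fell by 0.35 (SE 0.071, adjusted p = 0.00057). The 2 tables were counted and normalised separately and the difference between them was not tested. In siD3 #3 TARBP2 was 20.5 to 21.8 cpm against 22.8 to 23.8, and the log2 fold change of -0.13 did not pass (adjusted p = 0.36). A lncRNA on the opposite strand covers 13.2% of the TARBP2 exons.

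Among the Argonautes, AGO2 (chr8:140520156-140635633, minus strand), the slicer, had the largest change of the 10 genes in shD3 #1. It was 73.0, 82.2 and 80.6 cpm in sh1Control and 113, 112 and 108 in shD3 #1. No knockdown library came near the controls, and AGO2 rose by 0.50 (SE 0.065, adjusted p = 7.3e-06), to 141% of the control mean. In the deep libraries it was 162, 174 and 175 cpm in the control and 235, 251 and 245 in the knockdown. The groups were as clearly apart, and AGO2 rose by 0.52 (SE 0.045, adjusted p = 1.5e-07), to 143%. Neither call was lost in any alternative. In shD3 #4 AGO2 was 78.8, 75.8 and 78.3 cpm in the control and 90.6, 74.5 and 83.9 in the knockdown. These groups overlapped, and the log2 fold change was 0.099 (adjusted p = 0.27). In the siRNA experiment it was 78.5 and 70.9 cpm in siControl and 66.3, 60.8 and 88.5 in siD3 #3. Replicate 3 was above both controls and the others below them, with a log2 fold change of -0.056 (adjusted p = 0.82). Without that replicate the change was -0.24 with an adjusted p of 0.049, and with the replicate block it was -0.24 with an adjusted p of 0.037.

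The other 3 Argonaute genes lie in tandem on the plus strand of chromosome 1, in the order AGO4, AGO1 and AGO3 (chr1:35808016-35857890, chr1:35869808-35930532 and chr1:35930718-36072500), with 11917 bases between AGO4 and AGO1 and 185 between AGO1 and AGO3. They did not move as 1 block. AGO4, at 9.28 to 21.1 cpm in all libraries, was 12.4, 13.4 and 9.28 cpm in sh1Control and 15.4, 15.0 and 16.2 in shD3 #1. Its groups did not overlap and AGO4 rose by 0.41 (SE 0.12, adjusted p = 0.0089). In shD3 #4 it was 14.8, 13.9 and 14.8 cpm against 12.9, 11.1 and 10.8. The knockdown was higher in each library and AGO4 rose by 0.32 (SE 0.093, adjusted p = 0.0070), a call that DESeq2 (adjusted p = 0.061) and a joint fit of the 17 libraries (0.057) did not make. In siD3 #3 (0.23, adjusted p = 0.25) and deep shD3 #1 (0.13, adjusted p = 0.095) the log2 fold changes of AGO4 did not pass.

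AGO3 was 52.5, 49.2 and 50.7 cpm in deep shD3 #1 against 46.1, 46.3 and 45.2 in its control. It was higher in each knockdown library and rose by 0.15 (SE 0.049, adjusted p = 0.016), a call lost without deep shD3#1 replicate 1 (0.12, adjusted p = 0.063) and without a filter on counts (0.12, adjusted p = 0.087). The first shD3 #1 libraries gave nearly the same log2 fold change, 0.16, which just missed the threshold (adjusted p = 0.0504). It passed with the size factors of DESeq2 (adjusted p = 0.045) and without shD3#1 replicate 3 (0.17, adjusted p = 0.022). In shD3 #4 (0.11) and siD3 #3 (0.012) the groups of AGO3 overlapped and the changes did not pass, with siD3 #3 replicate 3, at 36.2 cpm, above the controls (29.9 to 30.1) and replicates 1 and 2, at 29.2 and 25.4, below them. AGO1, which lies between the other two, was called in no comparison. Its log2 fold changes were 0.040, 0.15, 0.15 and -0.089 in shD3 #1, shD3 #4, siD3 #3 and deep shD3 #1, with adjusted p of 0.68, 0.076, 0.25 and 0.11.

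TNRC6A (chr16:24610209-24827632, plus strand), the scaffold between Argonaute and the deadenylases, moved with AGO2 in shD3 #1. Its levels were 123, 116 and 117 cpm in sh1Control and 165, 178 and 154 in shD3 #1. The lowest knockdown library was above the highest control, and TNRC6A rose by 0.48 (SE 0.065, adjusted p = 1.1e-05). In the deep libraries it was 171, 174 and 167 cpm in the control and 208, 216 and 209 in the knockdown. The groups did not overlap, and the rise was 0.31 (SE 0.040, adjusted p = 1.1e-05). In shD3 #4 TNRC6A was 108, 114 and 107 cpm in the control and 113, 112 and 107 in the knockdown. Those libraries were interleaved, with a log2 fold change of 0.011 and a 95% interval of -0.12 to 0.14. In siD3 #3 it was 127, 144 and 164 cpm against 125 and 116. The knockdown libraries spread widely above the controls, and the log2 fold change of 0.27 did not pass (adjusted p = 0.13), although it did in the joint fit of 17 libraries (0.26, adjusted p = 0.023).

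Whether the knockdowns differed was tested by the contrast of their log2 fold changes in 1 model of the 17 libraries of the first table, 30 tests over 3 contrasts and 10 genes, with p adjusted over 18672 genes in each contrast. Between shD3 #1 and shD3 #4, 5 of the 10 genes differed, where 39.4% of all genes did. TNRC6A was 0.47 higher in shD3 #1 (SE 0.11, adjusted p = 0.0025), AGO2 was 0.40 higher (SE 0.15, adjusted p = 0.035) and TARBP2 was 0.37 higher (SE 0.10, adjusted p = 0.0079). The contrast was -0.36 for DGCR8 (SE 0.13, adjusted p = 0.029) and -0.26 for DROSHA (SE 0.094, adjusted p = 0.030). Of these 5 differences, that of TNRC6A passed in all 22 alternatives, TARBP2 in 21, DGCR8 in 17, AGO2 in 15 and DROSHA in 14. The TARBP2 difference holds for the first table only, where TARBP2 was not called in shD3 #1. In deep shD3 #1, which is outside this model, TARBP2 fell, as it did in shD3 #4. For every contrast, some of the 22 left out a library of the knockdown or control not compared in it. Such fits hardly move the estimate and are a weaker check.

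Between siD3 #3 and shD3 #1, 1 of the 10 genes differed, where 37.3% of all genes did. AGO2 was 0.54 lower with the siRNA than with the shRNA, at a contrast of -0.54 (SE 0.15, adjusted p = 0.0091), in all 22 alternatives. For the 3 genes of the nuclear steps the contrast was near 0, with 95% intervals of -0.22 to 0.20 for DROSHA, -0.27 to 0.30 for DGCR8 and -0.24 to 0.15 for XPO5. Differences of any size inside those intervals are compatible with these libraries. Between siD3 #3 and shD3 #4, 2 of the 10 genes differed, where 26.8% of all genes did: the contrast was -0.27 for DROSHA (SE 0.10, adjusted p = 0.049) and -0.25 for XPO5 (SE 0.092, adjusted p = 0.044). Those 2 passed in only 8 and 7 of 22 alternatives. No contrast of the 10 genes reached 1.5-fold together with an adjusted p under 0.05, which 25.9%, 25.4% and 17.8% of all genes did in these 3 contrasts. The contrasts share libraries and are not independent. According to the study, the siRNA and shRNA cells also differed in delivery and in the days from treatment to harvest. These cannot be told apart from the reagent in the contrasts of siD3 #3 with either shRNA.

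Levels of different genes were compared as control cpm per kb of exon. In sh1Control, TNRC6A (9.16 ± 0.32, SD, n = 3), DROSHA (8.73 ± 0.38) and XPO5 (8.32 ± 0.11) were the highest per kb, with TNRC6A overlapping DROSHA and DROSHA overlapping XPO5. DICER1 (5.38 ± 0.12), DGCR8 (5.26 ± 0.15), AGO2 (4.96 ± 0.31) and TARBP2 (4.94 ± 0.26) followed, and each of these overlapped the next. AGO1 (2.61 ± 0.24) stood apart below them, and AGO3 (1.59 ± 0.030) and AGO4 (1.57 ± 0.29) overlapped at the bottom. The same 3 genes led and the same 3 Argonautes were last in sh4Control and siControl. In the deep controls DROSHA (17.8 ± 0.31) and TNRC6A (13.1 ± 0.30) led, AGO2 (10.7 ± 0.46) came next and TARBP2 (3.54 ± 0.14) was below AGO1 (4.79 ± 0.084). AGO2 had the highest level per kb of the 4 Argonautes in every control group. With the longest transcript as the length, TARBP2 moved from rank 7 to rank 4 in sh1Control, at 10.9 cpm per kb. By that length TARBP2 was at rank 3 in sh4Control and siControl, and DROSHA at rank 4 and rank 5, so the leading genes there depend on the length used.

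**Figure D3:**
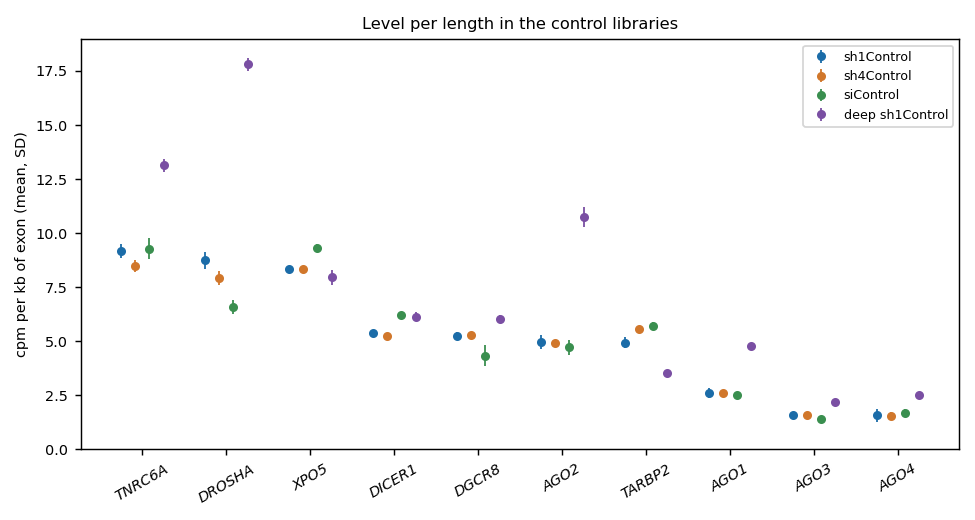
Level of each gene per kb of exon in the 4 control groups, as mean and SD, with genes in the order of sh1Control. AGO1, AGO3 and AGO4 are the lowest 3 in the first table's controls, and the deep control differs most for DROSHA, TNRC6A and AGO2.

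Around the 10 genes, 83 further genes of the pathway were followed in 5 lists. In all, 20 rose and 30 fell in shD3 #1 (77 tested), 10 and 22 in shD3 #4 (77), 12 and 26 in siD3 #3 (78) and 15 and 30 in deep shD3 #1 (75). The shares that rose were 26.0%, 13.0%, 15.4% and 20.0%, beside 28.6%, 20.0%, 16.6% and 31.1% over all genes tested. The shares that fell were 39.0%, 28.6% and 33.3% in the first table, beside 27.8%, 20.8% and 16.4%, and the 30 of 75 in the deep libraries stand beside 31.5%. The lists were chosen with results of these libraries known, so the counts are no independent evidence of a direction. Cofactors of the Microprocessor and of export, RNA-binding proteins and helicases that help DROSHA on some hairpins together with RAN, the GTPase that drives export, were mostly lower: 0 of 8 rose and 7 fell in shD3 #1, 0 and 5 in shD3 #4, 1 and 6 in siD3 #3 and 0 and 8 in deep shD3 #1. Over all genes tested the shares that fell were 27.8%, 20.8%, 16.4% and 31.5%. The median log2 fold change of this list was -0.38, -0.27, -0.55 and -0.33. RAN, at 452 ± 6.52 cpm in siControl and 220 ± 8.91 in siD3 #3, fell by 1.04 on the log2 scale (adjusted p = 0.00013). It fell by 0.44 in shD3 #4 and by 0.14 in deep shD3 #1, whereas in shD3 #1 its groups overlapped with a log2 fold change of 0.089 (adjusted p = 0.34). The splicing factor SRSF3, which marks hairpins for DROSHA, fell by 0.40, 0.37, 0.88 and 0.49 in shD3 #1, shD3 #4, siD3 #3 and deep shD3 #1. ERH, a small partner of DGCR8, fell by 0.37, 0.51, 0.48 and 0.80 in the same order. SAFB had the list's lowest log2 fold change in shD3 #1 (-0.51, adjusted p = 0.015), with a wide spread in the knockdown (34.7 ± 12.5 cpm against 50.7 ± 1.40). The helicase DDX5 went both ways: it fell by 0.40 in shD3 #1 and by 0.16 in deep shD3 #1, and it rose by 0.34 in siD3 #3 (adjusted p = 0.048), a call lost with DESeq2, with its size factors and without siControl replicate 1 or 2 or siTHUMPD3 replicate 1 or 2.

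Of the 15 partners of dicing and loading, 2 rose and 7 fell in shD3 #1, 0 and 7 in shD3 #4, 0 and 9 in siD3 #3 and 2 and 5 in deep shD3 #1, with medians of -0.14, -0.18, -0.29 and -0.092. Over all genes tested 28.6%, 20.0%, 16.6% and 31.1% rose and 27.8%, 20.8%, 16.4% and 31.5% fell, and in the deep libraries the list's share that fell, 33.3%, was near that. The list holds both HSP90 chaperones and their cochaperones STIP1 and FKBP4, which help Argonaute take up the duplex, and the HSP90 genes did not fall together. HSP90AA1 went from 827 ± 8.10 to 397 ± 14.6 cpm in shD3 #1, a fall of 1.06 (adjusted p = 2.8e-10), and fell by 0.98 in the deep libraries and by 0.49 in siD3 #3 (adjusted p = 0.029). In shD3 #4 its log2 fold change was -0.090 (adjusted p = 0.39). HSP90AB1, the other HSP90 gene, was at 1390 ± 52.8 cpm in sh1Control and 1438 ± 82.0 in shD3 #1, a log2 fold change of 0.049 (adjusted p = 0.50). It fell by 0.42 in shD3 #4 and by 0.42 in siD3 #3, and its log2 fold change of -0.12 in the deep libraries did not pass (adjusted p = 0.054). STIP1 fell by 0.76, 0.36, 0.69 and 0.46 and FKBP4 by 0.54, 0.34, 0.75 and 0.49 in shD3 #1, shD3 #4, siD3 #3 and deep shD3 #1. AJUBA, a LIM protein of processing bodies, fell by 0.66 in shD3 #4 and rose by 0.34 in deep shD3 #1. WTIP, of the same family, rose by 0.35 in shD3 #1.

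Of the 27 silencing effectors downstream of Argonaute, 9 rose and 6 fell in shD3 #1, 3 and 5 in shD3 #4, 6 and 6 in siD3 #3 and 7 and 8 in deep shD3 #1. Each of these shares (33.3% and 22.2%, 11.1% and 18.5%, 22.2% and 22.2%, 25.9% and 29.6%) lay within 10 percentage points of that over all genes (28.6% and 27.8%, 20.0% and 20.8%, 16.6% and 16.4%, 31.1% and 31.5%). The paralogues of TNRC6A were among those that rose. TNRC6B rose by 0.21 in shD3 #1, 0.23 in shD3 #4, 0.49 in siD3 #3 and 0.35 in deep shD3 #1. TNRC6C rose by 0.39 in shD3 #1, 0.49 in siD3 #3 and 0.56 in deep shD3 #1, and had a log2 fold change of 0.060 in shD3 #4 (adjusted p = 0.67). Subunits of the deadenylase complexes gave the lowest values: PAN2 fell by 0.69 in shD3 #1, CNOT7 by 0.36 in shD3 #4, CNOT10 by 0.63 in siD3 #3 and CNOT6 by 0.54 in deep shD3 #1. CNOT11, also of the CCR4-NOT complex, rose by 0.59 in shD3 #1, the decapping enzyme DCP2 rose by 0.71 in siD3 #3 and the 5′ exonuclease XRN1 rose by 0.30 in shD3 #4. Of 9 tested genes of small RNA turnover and tailing, 2 rose and 3 fell in shD3 #1, 1 and 1 in shD3 #4, 2 and 2 in siD3 #3 and 2 and 3 in deep shD3 #1, also within 10 percentage points of the shares over all genes. ZSWIM8, which directs Argonaute to decay on certain targets, had the highest log2 fold change among the called genes of that list in each comparison, at 0.25, 0.47, 0.63 and 0.22. The lowest of the called genes were DIS3L2 (-0.53 in shD3 #1), PARN (-0.19 in shD3 #4), LIN28B (-0.91 in siD3 #3, at 8.78 ± 1.10 cpm in the control) and TENT2 (-0.45 in deep shD3 #1).

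**Figure D4:**
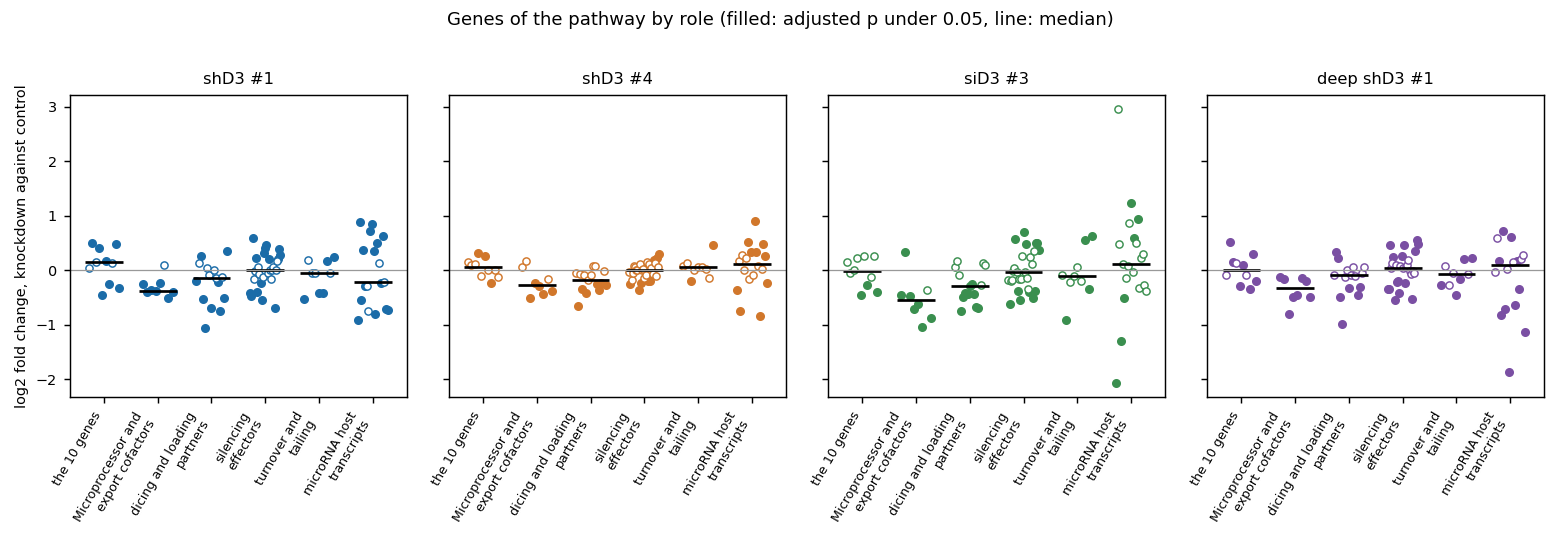
Log2 fold change of every tested gene by role in the pathway, 1 panel per comparison, with filled points past an adjusted p of 0.05 and a line at each list's median. The Microprocessor and export cofactors have medians of -0.38, -0.27, -0.55 and -0.33, and the spread is widest among the microRNA host transcripts.

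No gene of the lists passed both thresholds in the same direction in shD3 #1, shD3 #4 and siD3 #3. A rule of the adjusted p alone was adopted after the values were seen. By it, CNOT10, CNOT9, DLEU2, ERH, FKBP4, HNRNPA1, KHSRP, MIR17HG, PTGES3, SRSF3 and STIP1 fell in all 3. MIR22HG, TNRC6B, XRN1 and ZSWIM8 rose in all 3. How many of all genes tested did either was not counted, so no direction of the pathway is read from these names.

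Among 22 host transcripts of microRNAs, 7 of 18 tested rose and 7 fell in shD3 #1, 6 and 4 of 18 in shD3 #4, 3 and 3 of 19 in siD3 #3 and 4 and 6 of 16 in deep shD3 #1. Over all genes tested 28.6% rose and 27.8% fell in shD3 #1, 20.0% and 20.8% in shD3 #4, 16.6% and 16.4% in siD3 #3 and 31.1% and 31.5% in deep shD3 #1. In siD3 #3 the list's shares, 15.8% each way, were about those of all genes, and the joint fit of 17 libraries called 7 as higher and 6 as lower there. The share of all genes called in that joint fit was not counted, so its larger numbers are not read as a result about the hosts. MIR17HG, host of the miR-17 to miR-92a hairpins shown above, was 13.96, 14.7 and 14.5 cpm in sh1Control and 10.4, 9.69 and 9.16 in shD3 #1. It was 14.5, 13.2 and 12.9 cpm in sh4Control and 8.60, 6.77 and 8.78 in shD3 #4, and 8.93 and 10.6 in siControl and 3.63, 2.91 and 5.33 in siD3 #3. The deep libraries held 12.6, 10.4 and 10.1 cpm in the control and 5.54, 7.61 and 5.82 in the knockdown. In all 4 comparisons the knockdown libraries were below the controls, and MIR17HG fell by 0.55, 0.74, 1.29 and 0.82 (adjusted p = 0.00014, 3.3e-06, 0.0065 and 4.1e-05). A lncRNA on the opposite strand covers 20.5% of its exons.

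MIR22HG, host of miR-22, was 23.7, 24.6 and 23.2 cpm in sh1Control and 44.2, 42.7 and 41.4 in shD3 #1, and 31.5 and 24.5 in siControl and 58.2, 61.3 and 77.6 in siD3 #3. In both experiments every knockdown library was above the controls, and MIR22HG rose by 0.84 (adjusted p = 3.4e-08) and by 1.23 (adjusted p = 0.0012). In shD3 #4 it went from 23.0 to 24.2 cpm in the control to 27.8 to 31.5, a rise of 0.34. In the second table it is listed at 0 in all 6 libraries. DLEU2, host of miR-15a and miR-16, was 10.3 and 12.1 cpm in siControl and 2.50, 1.94 and 3.44 in siD3 #3. The knockdown libraries were far below the controls, and DLEU2 fell by 2.08 (adjusted p = 0.00054). It fell by 0.92 in shD3 #1 and by 0.36 in shD3 #4, while in the deep libraries it overlapped, at 10.4 to 12.3 cpm in the control and 10.6 to 11.1 in the knockdown. Exons of TRIM13 on the opposite strand cover 5.39% of the DLEU2 exons.

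MIR29B2CHG, host of miR-29b and miR-29c, moved in opposite directions with the 2 shRNAs. It was 21.8, 24.6 and 23.2 cpm in sh1Control and 13.1, 15.3 and 10.8 in shD3 #1. It was 18.7, 17.9 and 19.8 cpm in sh4Control and 34.4, 34.8 and 36.6 in shD3 #4. Neither pair of groups overlapped, and MIR29B2CHG fell by 0.80 in the first and rose by 0.91 in the second, a difference of -1.71 (SE 0.15, adjusted p = 2.3e-08 in the joint model). It rose by 0.59 in siD3 #3 (adjusted p = 0.019) and fell by 0.64 in deep shD3 #1. Exons of CD46 on the opposite strand cover 8.27% of the MIR29B2CHG exons, and those of the pseudogene CDCA4P4 cover 4.2%. MIR100HG, host of miR-100, let-7a-2 and miR-125b-1, rose by 0.89 in shD3 #1, where it went from 35.3 ± 3.15 to 65.5 ± 0.970 cpm, and by 0.16 in deep shD3 #1. MIR503HG fell by 0.84 in shD3 #4. The extremes of the deep libraries, MIR181A1HG (a rise of 0.73) and MIR210HG (a fall of 1.86), were at 1.53 ± 0.15 and 0.665 ± 0.17 cpm in the control.

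**Figure D5:**
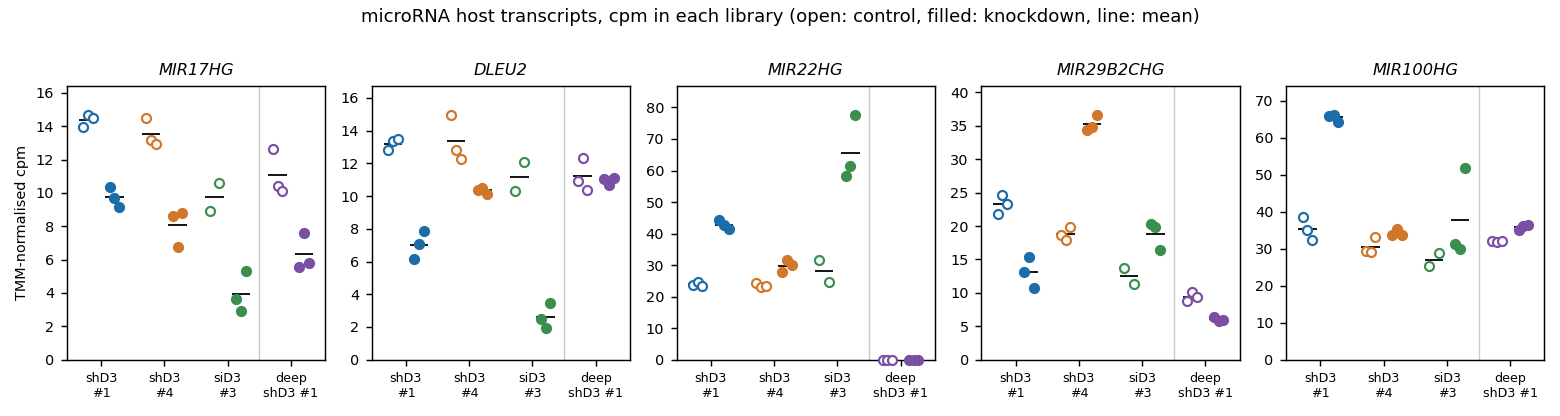
TMM-normalised cpm of 5 microRNA host transcripts in each library, with control libraries open, knockdown libraries filled and a line at each mean. MIR17HG is lower in the knockdown in all 4 comparisons, and MIR29B2CHG is lower with shD3 #1 and higher with shD3 #4. MIR22HG is listed at 0 in the deep libraries, which were counted separately, and this is not read as absence of its RNA.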

How the data were processed

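RNA depleted of rRNA from A549 cells was made into 23 directional libraries. According to the methods and processing notes, the authors trimmed reads with Trimmomatic 0.40 and aligned them to GRCh38.p14 with STAR 2.7.10a. They deposited raw counts per gene, not normalised. The methods name a RefSeq annotation, whereas the first table has Ensembl identifiers and the second gene symbols. The strand column kept is not given in the sources used here.

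Each knockdown was compared with its own control in edgeR 4.0.16 by filterByExpr, TMM factors, the quasi-likelihood test and Benjamini-Hochberg adjustment over all genes tested, with the study's thresholds of 0.05 and, for size, 0.585. Contrasts came from 1 model of 17 libraries. Alternatives were DESeq2 1.42.0, its size factors in edgeR, no filter, at least 10 counts in every library, a replicate block, a joint fit and leaving out each library. The code was tested on simulated data. Lengths and overlaps are from GENCODE on GRCh38, with cpm divided by the bases of all exons of a gene.

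The 10 genes and the lists were chosen with earlier results of these data known. Beside them, the text names pathway genes that passed the 2 thresholds with 1 sign in the 3 knockdowns of the first table and the highest and lowest called gene of each list and comparison. Genes named beyond that rule were chosen after their values were seen. Replicates are labelled as biological, and no pair of libraries agreed within sampling noise.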

Additional observations from a re-analysis of the deposited data

How the results depend on the processing

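No member of the 10 genes passed both thresholds in any alternative, and the changes of AGO2 and TNRC6A (shD3 #1 in both tables), of DROSHA and AGO4 (shD3 #1), of DGCR8 and XPO5 (shD3 #1 in both tables), of TARBP2 (deep shD3 #1) and of DICER1 (shD3 #4) kept their direction and their call in every alternative run. The number of members that rose in shD3 #4 was 1 with DESeq2 and in 1 fit of all 17 libraries, in place of 2. In siD3 #3 it was 2 in that fit (DICER1, adjusted p = 0.0081, and TNRC6A, adjusted p = 0.023), in place of 0. In deep shD3 #1 it was 2 without a filter, in place of 4. Without a filter, 3 members in place of 5 differed between shD3 #1 and shD3 #4, and 1 in place of 2 between siD3 #3 and shD3 #4. The shares of all genes called in these alternatives were not counted. Values near 0 changed sign. In shD3 #4, DROSHA was -0.0068 (DESeq2), -0.0021 (no filter) and -0.0051 (17 libraries), and TNRC6A was -0.0065, -0.0018 and -0.0047. AGO3 in siD3 #3 was -0.018 with DESeq2 and without a filter. The contrast of siD3 #3 with shD3 #1 was -0.019 (DESeq2), -0.012 (DESeq2 size factors) and -0.026 (no filter) for DGCR8, and 0.024 for DROSHA with at least 10 counts in every library. The causes were not tested.

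Leaving out 1 library at a time, the members that fell numbered 0 to 1 in shD3 #4 and 0 to 4 in siD3 #3, and those that rose in deep shD3 #1 numbered 2 to 4. The pathway genes of siD3 #3 numbered 4 to 15 (rose) and 14 to 29 (fell). The members that differed numbered 2 to 6 between shD3 #1 and shD3 #4, 1 to 3 between siD3 #3 and shD3 #1 and 0 to 4 between siD3 #3 and shD3 #4. Each of these fits also changes how many of all genes are called, and those shares were not counted. Log2 fold changes ranged from -0.0024 to 0.13 for AGO1 in shD3 #1, from -0.025 to 0.031 for DROSHA and -0.012 to 0.036 for TNRC6A in shD3 #4, and from -0.24 to 0.058 for AGO2 and -0.14 to 0.13 for AGO3 in siD3 #3. The contrasts of siD3 #3 with shD3 #1 ranged from -0.079 to 0.028 for DROSHA and from -0.12 to 0.13 for DGCR8.

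Groups share replicate numbers, but in no comparison was the correlation of deviations over 0.1 in every same-numbered pair: it was -0.014 to 0.074 in shD3 #1, 0.0026 to 0.056 in shD3 #4, -0.11 to 0.14 in siD3 #3 and -0.078 to 0.019 in deep shD3 #1, so the numbers were not taken as pairs. With the replicate block, in which siTHUMPD3 replicate 3 has no partner and does not inform the change in siD3 #3, AGO3 was -0.15 and AGO2 -0.24 (adjusted p = 0.037) in siD3 #3, DICER1 in deep shD3 #1 had an adjusted p of 0.065, and 0 members in place of 2 differed between siD3 #3 and shD3 #4. No other call on a member changed with the block. The siRNA comparison rests on the fewest libraries, 5, and siTHUMPD3 replicate 3 stood apart from the other replicates of its group. Replicates were compared by a mean chi-square per gene on raw counts, which is higher the less alike they are and also rises with depth. It was 30.5 and 33.9 for replicate 3 against replicates 1 and 2, and 3.70 between replicates 1 and 2. No pair of any other group exceeded 15.7, the value of deep shD3#1 replicates 1 and 3, although depth differs between groups. The siD3 #3 calls and contrasts therefore depend in part on that library. Fits that leave out a single library aside, the median over genes of the shift in log2 fold change from the main fit was at most 0.046 in size. That value was for siD3 #3 with at least 10 counts in every library. With DESeq2 or its size factors the median shift was at most 0.030 in size.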
